A study of Macaca mulatta with 13 samples.

Results

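Transcript levels of 9 genes that halt the cell cycle or act with p53 were examined in a thigh muscle, the vastus lateralis, taken from aged rhesus monkeys (Macaca mulatta). The genes were CDKN1A, CDKN1B, CDKN1C, CDKN2A, MDM2, GADD45A, GADD45B, CCND1 and SESN1, a list set by gene name. A probe set, the group of short probes that reads 1 transcript on an Affymetrix array, was counted as a member when the array annotation gave it 1 of these symbols and no other. This gave 17 probe sets for 8 genes, out of 14132 named genes in all and 52766 probe sets that are not array controls. CDKN1C was not analysed here, since no probe set carried its symbol in the annotation used.

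The comparison asks which transcripts differ in muscle when the diet has been kept low in calories for much of adult life (calorie restriction, CR). The restricted group held 8 males aged 27 to 32 years that had been restricted for 18.5 years, and the control group held 5 males aged 27 to 30 years on the control diet. Each animal gave 1 one-colour array, so the number of animals limits the precision. Ages are known per group only, and the labels do not say how far calories were cut.

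As background, p53 is a transcription factor that is stabilised by DNA damage and other stress and switches on genes that stop division, repair DNA or kill the cell. One of these genes encodes MDM2, the ubiquitin ligase that marks p53 for degradation, which closes a feedback loop. CDK inhibitors such as p21 (CDKN1A), p27 (CDKN1B) and p16 (CDKN2A) block the kinases that cyclin D1 (CCND1) and other cyclins activate, and so hold RB family proteins in the form that represses E2F. Mature muscle fibres do not divide, and p21 also takes part in the cell cycle exit of myoblasts as they form fibres.

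On each array the mean signal was 500 after trimming 2% of probe sets at either end, the value MAS5 scaling aims for. Of the 9 listed muscle fibre genes with a probe set, 8 had mean signals between 55744 (CASQ1) and 119190 (TNNT3), and TTN had 2444. Control replicate 4 stood apart from the other controls in several cell type markers. The summed signal of endothelial, pericyte and smooth muscle markers (14 of 18 genes with a probe set) was 9167 to 31170 in CR animals, 14104 to 23887 in the other controls and 41622 in control replicate 4. For fibroblast and matrix markers (10 of 12 genes) it was 49892 to 117990 in CR animals, 47293 to 106940 in the other controls and 188700 in control replicate 4. The fibre gene sum of that animal, 411380, was the lowest of all animals. Member values are therefore also given without this animal where they move with it.

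No member passed the test for a difference between the diets. Signals are given as log2 of the MAS5 signal, and the test was limma's moderated test over the brighter 50% of probe sets, with Benjamini-Hochberg adjustment over all 26383 of them. Of the 17 member probe sets 14 were bright enough to be tested, and 0 of them passed an adjusted p of 0.05, where 0% of all tested probe sets passed. At an unadjusted p under 0.05 limma gave 0 of 14 members, against 2.43% of all tested probe sets (641), of which 1.25% were higher and 1.18% lower in CR. In 0 of the 14 did the CR and control animals fail to overlap, against 0.072% of all tested probe sets. The adjusted p of every tested member was 0.999. Of the 14 differences, 12 lay below 0, that is lower in CR, beside 51.9% of all tested probe sets, and 2 lay above 0, beside 48.1%. By 1 probe set per gene, the brightest, 7 of 8 genes lay below 0. The median difference was -0.27 on the log2 scale for the 14 members and -0.012 for all tested probe sets. These summaries leaned on single animals. Without control replicate 3, 9 of 14 probe sets and 5 of 8 genes lay below 0, with a median over the probe sets of -0.089. Without CR replicate 8 these were 9, 5 and -0.066, and without control replicate 4 they were 11, 6 and -0.14. Probe sets of 1 gene share its transcript and all share the same animals, so these counts are given without a test.

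**Figure D1:**
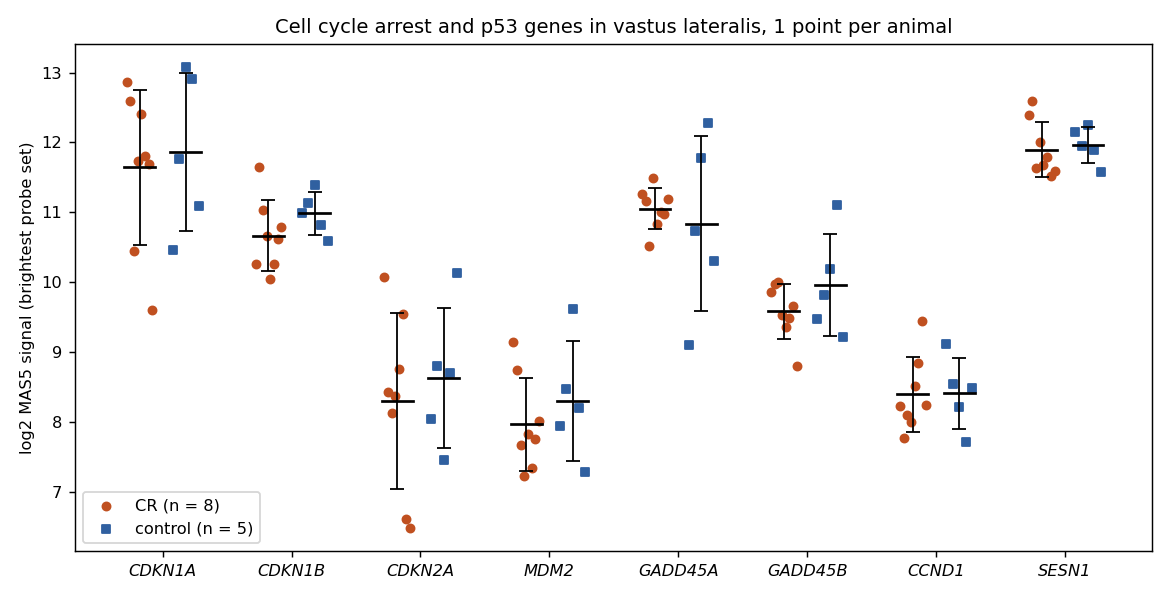
Log2 MAS5 signal of the brightest probe set of each of 8 genes, 1 point per animal, with CR (n = 8) left of control (n = 5), and bars for the mean ± SD. The diets overlap for every gene, and CDKN1A and CDKN2A are the most widely spread.

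**Figure D2:**
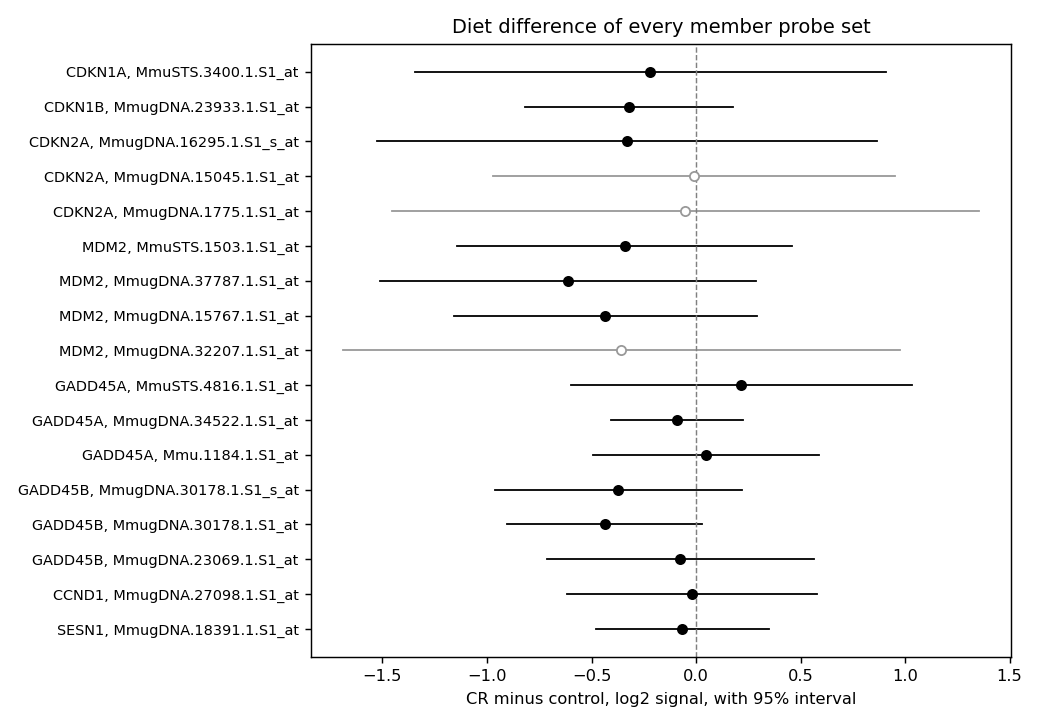
Difference in log2 signal, CR minus control, with its 95% interval from limma before adjustment, for all 17 member probe sets. Filled points are the 14 tested probe sets and open grey points the 3 dimmer ones. Each interval includes 0.

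Among the CDK inhibitors, CDKN1A and CDKN2A varied most between animals. CDKN1A encodes p21, the inhibitor through which p53 stops the cell cycle. Its only probe set, MmuSTS.3400.1.S1_at, gave log2 signals from 9.61 to 12.86 in CR animals, with a median of 11.77. The control animals had 10.46, 11.77, 13.08, 12.91 and 11.10. The lowest value was that of CR replicate 8 and the highest that of control replicate 3, linear signals of 778.9 and 8660. The means were 11.64 ± 1.11 (SD, n = 8) in CR and 11.86 ± 1.13 (SD, n = 5) in controls. The difference was -0.22 ± 0.53 (SE, log2; 95% interval -1.35 to 0.91; limma's adjusted p = 0.999). Its sign rested on single animals, since it was 0.086 without control replicate 3, 0.043 without control replicate 4 and 0.073 without CR replicate 8. The spread within diets, a residual SD of 1.12, lay at the 96.3rd percentile of the tested probe sets, whose median was 0.45.

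CDKN1B encodes p27, an inhibitor of CDK2 complexes that also helps to keep resting cells out of division. Its probe set ranged from 10.05 to 11.65 in CR animals (median 10.64), and control animals had 10.98, 11.14, 11.40, 10.82 and 10.60. Except for CR replicates 2 and 3, CR animals lay below the control mean, but the highest value of all was that of CR replicate 2. The difference was -0.32 ± 0.24 (SE; 95% interval -0.82 to 0.18; limma's adjusted p = 0.999), a fold of 0.801. Without CR replicate 2 it was -0.46, with an adjusted p of 0.903 in limma.

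CDKN2A encodes p16, an inhibitor of CDK4 and CDK6 that is used as a marker of cell senescence, and from another reading frame ARF, which inhibits MDM2. The brightest of its 3 probe sets, MmugDNA.16295.1.S1_s_at, ranged from 6.48 to 10.07 in CR animals (median 8.40). Control animals had 8.04, 8.80, 7.46, 8.71 and 10.14. High and low animals were found in both diets, and CR replicates 7 and 8 were the lowest of all. The difference was -0.33 ± 0.57 (SE; 95% interval -1.53 to 0.87; limma's adjusted p = 0.999), and 0.047 without control replicate 5. The other 2 CDKN2A probe sets had mean log2 signals of 6.05 and 4.92, below the limit of 6.74 for testing. Their differences were -0.0091 and -0.051. The 3 did not follow each other across animals, with Pearson's r between -0.22 and 0.14 after removal of the diet means (n = 13, lowest p = 0.464 in a permutation test).

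MDM2 is both a target and an inhibitor of p53. All 4 of its probe sets had a lower mean in CR, and 3 were bright enough to be tested. The probe set MmugDNA.37787.1.S1_at ranged from 6.43 to 9.39 in CR animals (median 7.54), and control animals had 8.59, 8.06, 9.45, 8.25 and 7.78. CR replicates 1 and 2 were as high as the upper controls, while the other CR animals had 7.79 or less. The difference was -0.61 ± 0.42 (SE; 95% interval -1.51 to 0.29; limma's adjusted p = 0.999), a fold of 0.654, which is the lowest among the tested members. The probe set MmuSTS.1503.1.S1_at, the brightest, differed by -0.34 ± 0.38, and MmugDNA.15767.1.S1_at by -0.43 ± 0.34. The dimmest, with a mean of 6.25, differed by -0.36. Control replicate 3 had the highest signal on each of the 4 probe sets. Without it the differences of the 3 tested ones were -0.36, -0.013 and -0.12 in the same order. The tested MDM2 probe sets followed each other across animals. MmuSTS.1503.1.S1_at had r = 0.76 with MmugDNA.37787.1.S1_at (rho = 0.47) and r = 0.81 with MmugDNA.15767.1.S1_at (rho = 0.79), both with an adjusted p of 0.0194 for r over 15 pairs of probe sets in a permutation test. The adjusted p for rho was 0.247 and 0.0337. Without control replicate 3 and CR replicate 1, the animals farthest from the median, r was 0.50 and 0.71.

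SESN1 encodes sestrin 1, a p53 target that restrains mTORC1. Its log2 signals were 11.52 to 12.59 in CR animals (median 11.73) and 12.15, 11.95, 12.25, 11.90 and 11.58 in control animals. The means differed by -0.066 ± 0.20 (SE; 95% interval -0.48 to 0.35; limma's adjusted p = 0.999), and by 0.0044 without control replicate 3. CR replicates 1 and 2 had the highest values and most other CR animals lay near the lowest control.

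GADD45A and GADD45B encode small stress proteins that bind PCNA, p21 and kinases of the p38 and JNK pathways, and GADD45A is a p53 target. The probe sets of GADD45A disagreed with each other. On MmuSTS.4816.1.S1_at, the brightest, CR animals lay between 10.52 and 11.49 (median 11.09), inside the span of the control animals, which had 9.10, 10.74, 11.78, 12.28 and 10.30. The SD was 0.30 in CR (n = 8) and 1.25 in controls (n = 5), and this difference in spread was not tested. The means differed by 0.22 ± 0.39 (SE; 95% interval -0.60 to 1.03; limma's adjusted p = 0.999). Leaving out control replicate 1 gave -0.22, and leaving out control replicate 4 gave 0.58. On MmugDNA.34522.1.S1_at all 13 animals lay between 9.94 and 10.60, and the difference was -0.091 ± 0.15. Its residual SD of 0.21 was at the 4.59th percentile of the tested probe sets. On the dimmest GADD45A probe set the difference was 0.049 ± 0.26. The brightest GADD45A probe set had r = 0.036 (rho = -0.066) with the second brightest and r = -0.48 (rho = -0.48) with the dimmest, with permutation p of 0.864 and 0.0825 for r. Which of the probe sets reads the GADD45A transcript best was not tested.

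GADD45B gave the lowest p of the members, on MmugDNA.30178.1.S1_at. CR animals had 8.52 to 9.84 (median 9.61), and control animals had 10.08, 10.14, 9.42, 9.67 and 10.19. All 8 CR animals lay below the control mean, yet control replicate 3 was lower than most of them. The difference was -0.44 ± 0.22 (SE; 95% interval -0.90 to 0.030; unadjusted p = 0.0648 and adjusted p = 0.999 in limma), a fold of 0.739. Leaving out 1 animal gave -0.56 to -0.30. The brightest probe set, MmugDNA.30178.1.S1_s_at, differed by -0.37 ± 0.28, but control replicate 4 had the highest value on it, 11.10, and without that animal the difference was -0.088. The last, MmugDNA.23069.1.S1_at, differed by -0.076 ± 0.30, and by 0.059 without control replicate 4. Across animals MmugDNA.30178.1.S1_s_at followed MmugDNA.23069.1.S1_at, with r = 0.79 (adjusted p = 0.0191, permutation test) and rho = 0.76 (adjusted p = 0.0337). Without control replicate 4 and CR replicate 8 r was 0.75. It did not follow MmugDNA.30178.1.S1_at, with r = -0.16 (rho = -0.23, permutation p = 0.576 for r).

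CCND1 encodes cyclin D1, the partner of CDK4 and CDK6, and had nearly equal means in both diets. It ranged from 7.78 to 9.44 in CR animals (median 8.23), and control animals had 9.11, 8.54, 8.22, 7.71 and 8.48. The difference was -0.018 ± 0.28 (SE; 95% interval -0.62 to 0.58; limma's adjusted p = 0.999). It lay between -0.19 and 0.16 when single animals were left out, and was 0.015 after quantile normalization.

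Whether the genes vary together between animals on the same diet was asked with the diet means removed, for the brightest probe set of each gene. Of 28 pairs, 0 passed an adjusted p of 0.05 in the permutation test for Pearson's r, 0 for Spearman's rho, and 4 had an unadjusted p under 0.05 for r. The highest r was that of MDM2 with SESN1, 0.69 (p = 0.00931, adjusted p = 0.141; rho = 0.55, p = 0.0645, adjusted p = 0.258; permutation test), and it was 0.56 without control replicate 3 and CR replicate 1. CDKN1A had r = 0.65 with GADD45B (p = 0.0202; rho = 0.61, p = 0.0408) and r = 0.63 with GADD45A (p = 0.0159; rho = 0.65, p = 0.0331), each with an adjusted p of 0.141 for r and 0.258 for rho in the permutation test. Without CR replicate 8 and control replicate 1 these were 0.43 and 0.71. Other tested probe sets of these genes differed. The r with CDKN1A was 0.11 for GADD45A on MmugDNA.34522.1.S1_at and -0.29 on the dimmest. It was -0.24 for GADD45B on MmugDNA.30178.1.S1_at and 0.75 on MmugDNA.23069.1.S1_at. CCND1 ran the other way: its r was negative with each of the other 7 genes, from -0.60 with GADD45A to -0.20 with CDKN2A. For GADD45A and CCND1 the permutation p was 0.0185 (adjusted p = 0.141; rho = -0.59, p = 0.0525), and r was -0.26 without control replicates 1 and 4.

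**Figure D3:**
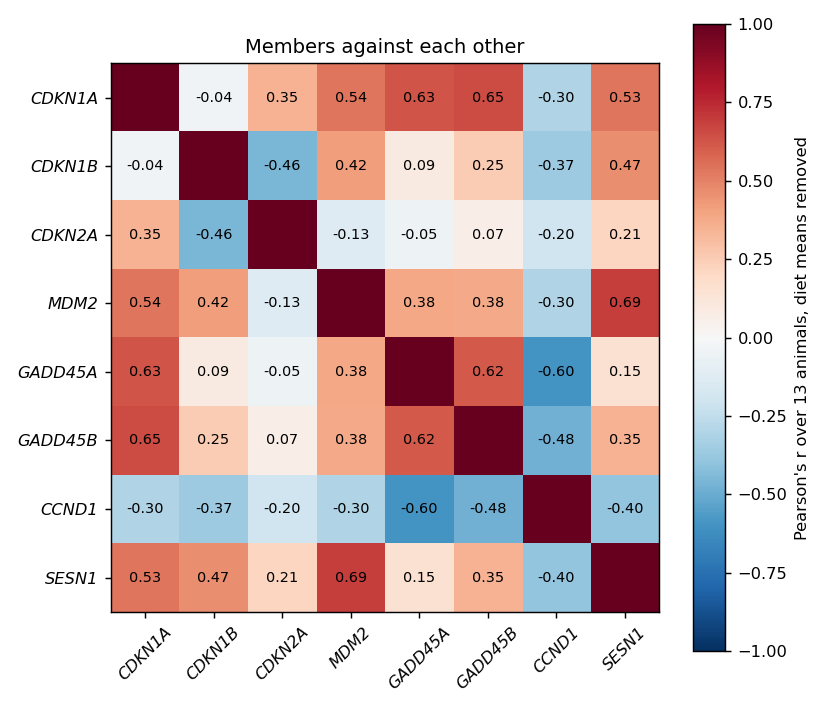
Pearson's r between the brightest probe sets of 8 genes over 13 animals, after removal of the diet means. CDKN1A, MDM2, GADD45A, GADD45B and SESN1 have positive values with each other, CCND1 has negative values with all others, and no pair passed the adjusted threshold. With CDKN1A, the other tested probe sets had r of 0.11 and -0.29 for GADD45A and of 0.75 and -0.24 for GADD45B.

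For each gene the 3 other genes with the most similar pattern were taken from all tested probe sets, by r over the 13 deviations from the diet means. These are the highest of many values, so no p is given. The closest to SESN1 was MDM2, on MmugDNA.37787.1.S1_at, with r = 0.90 and rho = 0.92. It was followed by the corepressor gene RCOR1 (r = 0.90) and the acyl-CoA oxidase gene ACOX3 (r = 0.89). Without CR replicates 1 and 2 the value for MDM2 was 0.83, and without control replicate 4 it was 0.90. The other MDM2 probe sets had r with SESN1 of 0.69, 0.52 and 0.60, the last for the dimmest. Closest to CDKN1A were MYH10, a non-muscle myosin heavy chain (r = 0.92), IKBKB, a kinase of NF-kB activation (r = 0.91), and CNGA1, a cyclic nucleotide-gated channel subunit (r = 0.91). Closest to MDM2's brightest probe set were NUP58, PRIMPOL and RFXANK, with r from 0.88 to 0.91. Closest to GADD45B were PXYLP1, TCEAL9 and HMCN1, with r from 0.93 to 0.94, or 0.86 to 0.89 without control replicate 4. The nearest genes were MPHOSPH8 for GADD45A (r = 0.90), NHEJ1, which joins DNA ends, for CCND1 (r = 0.92), BRWD1 for CDKN2A (r = 0.93) and CHAMP1 for CDKN1B (r = 0.83).

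Members were also set against the summed signals of 8 marker lists and the 3-prime over 5-prime ratios of GAPDH and actin, a sign of RNA quality, in 80 relations with the diet means removed. CDKN1A was high in animals with a high summed signal of a list of satellite cell, myogenic and developmental muscle genes. That sum ran from 6694 to 34850 in CR animals (median 10644) and from 8120 to 59224 in control animals (median 14522), with 9 of 10 listed genes having a probe set. The r was 0.81 (adjusted p = 0.0360) and rho was 0.93 (adjusted p = 0.0032, permutation test). It was 0.84 without CR replicate 8 and control replicate 1, 0.83 without control replicate 4, 0.81 after quantile normalization and 0.78 among the 8 CR animals alone. In bulk muscle a larger number of cells of a type and more of their RNA per cell cannot be told apart.

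Single genes of that list, looked at after the sum, differed, and 3 of 9 passed the adjusted threshold. MYH3 had the highest mean signal of the 9, 4048, and so weighed most in the sum, and MYOD1 had the next, 2165.5. CDKN1A had r = 0.88 with MYH8, the perinatal myosin (rho = 0.84), r = 0.83 with MYH3, the embryonic myosin (rho = 0.93), and r = 0.82 with CHRNA1, the acetylcholine receptor subunit that rises in denervated fibres (rho = 0.80). The adjusted p over the 9 genes was 0.00225, 0.00544 and 0.00756 for r and 0.00491, 0.00054 and 0.0131 for rho in the permutation test. Without CR replicate 8 and control replicate 1 these r were 0.85, 0.85 and 0.68. For the satellite cell gene PAX7, whose mean signal of 99.8 was below the limit for testing, r was -0.093 (rho = -0.25, permutation p = 0.768 for r), and for MYOD1 it was 0.019 (rho = -0.093, permutation p = 0.952 for r). CDH15, the cadherin of satellite cells, had r = -0.46 (rho = -0.37, permutation p = 0.135 for r), and NCAM1 had r = 0.12 (rho = 0.071). The myogenic factor MYF5 had r = 0.56 (rho = 0.63, adjusted p = 0.129 for r, permutation test), and the receptor subunit CHRND had r = 0.44 (rho = 0.49).

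CDKN1A was low where the fibre gene sum was high, which ran from 506740 to 847760 in CR animals and from 411380 to 774260 in control animals. The r was -0.81 (adjusted p = 0.0360) and rho -0.87 (adjusted p = 0.00853, permutation test). It was -0.82 without CR replicate 8 and control replicate 1, -0.80 without control replicate 4, -0.72 among CR animals alone and -0.68 after quantile normalization. Single fibre genes, looked at after the sum, differed. TTN was the only one above 0, with r = 0.11 (rho = 0.20), and MYH2 had r = -0.47 (permutation p = 0.119 for r). The others lay between -0.83 (TNNT3) and -0.63 (CASQ1). CDKN1A also had r = -0.82 with the macrophage list (adjusted p = 0.0360, permutation test; rho = -0.88), but 1 probe set labelled ITGAM, with a mean signal of 75523, made up most of that sum, and without it r was 0.41 (permutation p = 0.186; rho = 0.38). GADD45A's brightest probe set had r = -0.76 with the fibre sum (adjusted p = 0.0360, permutation test) and rho = -0.76 (adjusted p = 0.129). This r was -0.65 without control replicates 1 and 4, and -0.53 after quantile normalization. Other members had r with the fibre sum of -0.69 (GADD45B), -0.67 (SESN1), -0.62 (MDM2) and 0.72 (CCND1). Their adjusted p was 0.106, 0.0946, 0.190 and 0.0771 in the permutation test, so none passed. CDKN2A and CDKN1B had r of -0.27 and -0.19. GADD45B's brightest probe set, MmugDNA.30178.1.S1_s_at, had r = 0.87 with Schwann cell and nerve markers (adjusted p = 0.0360, permutation test) and rho = 0.77 (adjusted p = 0.0764). With fibroblast and matrix markers it had r = 0.84 (adjusted p = 0.0360, permutation test) and rho = 0.66 (adjusted p = 0.184). The other GADD45B probe sets were not set against these sums. Control replicate 4 was the highest in both sums, and without it r was 0.76 and 0.72. Without control replicate 4 and CR replicate 8 r was 0.71 and 0.66. Most of the Schwann cell and nerve sum came from PMP22, with a mean signal of 5908, and the next gene, MBP, had 859. The relation of GADD45B with that sum without PMP22 was not tested. For CDKN1A the r was -0.29 with the GAPDH ratio (rho = -0.26) and -0.074 with the actin ratio (rho = -0.12), with permutation p of 0.352 and 0.820 for r. With both ratios as covariates the CDKN1A diet difference was 0.027. The part of cell makeup in the spread of these genes was not tested.

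**Figure D4:**
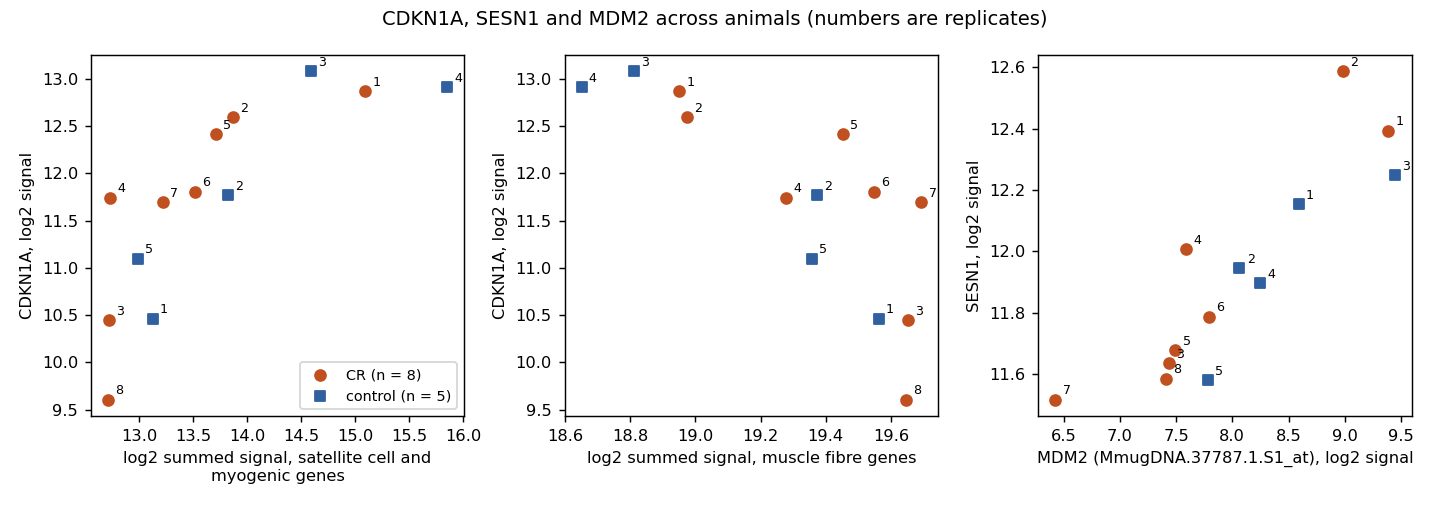
Left and middle, log2 signal of CDKN1A against the log2 summed signal of satellite cell, myogenic and developmental muscle genes and of muscle fibre genes. Right, log2 signal of SESN1 against the MDM2 probe set MmugDNA.37787.1.S1_at. Each point is 1 animal labelled by replicate, for CR (n = 8) and control (n = 5). CDKN1A follows the first sum (r = 0.81) and runs against the second (r = -0.81), and the diets are intermixed. Within the first list only MYH8, MYH3 and CHRNA1 passed the adjusted threshold. The satellite cell genes PAX7 and CDH15 had r of -0.093 and -0.46. SESN1 has r = 0.90 with this MDM2 probe set, which was picked as the closest of all tested probe sets. With the brightest MDM2 probe set r was 0.69.

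The wider pathway was described with 6 gene lists, each gene by its brightest probe set. In each list 0 genes passed limma's adjusted threshold in either direction, and beside 2.43% of all tested probe sets 1 gene in all had an unadjusted p under 0.05. That count depends on taking the brightest probe set. Dimmer ones of RRM2B (-0.56), CDKN2D (0.55), TFDP1 (1.09) and RB1 (0.54) also had an unadjusted p under 0.05 in limma. Of 31 tested p53 target genes other than the members, 18 were above 0 and 13 below, with a median difference of 0.028. ATF3, a stress-induced transcription factor, differed by 1.65 ± 0.65 (SE; unadjusted p = 0.0223 and adjusted p = 0.999 in limma), with 11.02 ± 1.54 in CR (SD, n = 8) and 9.37 ± 1.04 in controls (SD, n = 5). Its other probe set differed by 0.19. CCNG1, cyclin G1, differed by 0.34 ± 0.18, and BTG2, an antiproliferative gene, by 0.60 ± 0.35, or 0.98 without control replicate 1 and 0.38 without control replicate 2.

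Among 11 tested regulators of p53 the median was -0.042, with 5 above 0 and 6 below. The acetyltransferase genes CREBBP and EP300 differed by -0.26 ± 0.16 and -0.43 ± 0.27. The other CREBBP probe set tested differed by -0.049, and the other EP300 probe sets lay between -0.11 and 0.11. The p53 inhibitor gene MDM4 had a mean log2 signal of 6.01, below the limit for testing. Of the other CDK inhibitors and their partners, 4 genes were tested with a median of -0.10. CDKN2C (p18) differed by -0.10 ± 0.16, CDKN2AIP by -0.11 ± 0.23 and CDKN3 by -0.097 ± 0.27. CDKN2D (p19) lay above 0, at 0.047 ± 0.18. Its dimmer probe set differed by 0.55 ± 0.22, with an unadjusted p of 0.0241 in limma.

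Among 18 tested G1 cyclins, CDKs, RB family and E2F genes the median was 0.065, with 10 above 0 and 8 below. RBL2, the p130 protein that represses E2F targets in resting cells, differed by -0.55 ± 0.27 (SE; unadjusted p = 0.0572 and adjusted p = 0.999 in limma). CCNE1, cyclin E1, differed by 0.45 ± 0.29, or 0.15 without control replicate 5, and the phosphatase gene CDC25A by -0.41 ± 0.32 (other probe set -0.087). The differences were 0.042 ± 0.33 for CCND3, -0.020 ± 0.16 for CDK4 and -0.030 ± 0.19 for RB1, each turning sign when single animals were left out. A further RB1 probe set, named after its value was seen, differed by 0.54 with an unadjusted p of 0.0446 in limma. Likewise a dimmer TFDP1 probe set differed by 1.09 (unadjusted p = 0.0329 in limma), and the brightest one by -0.24. CCND2 was not analysed here.

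Genes of S, G2 and M phase were mostly dim: 8 of the 19 with a probe set were bright enough to be tested, and MKI67, TOP2A and CDK1 were among those that were not. The median of the 8 was -0.12, with MCM2 at -0.23 ± 0.19, MCM3 at -0.30 ± 0.42 and PCNA at 0.11 ± 0.16. MCM2 and MCM3 belong to the replicative helicase and PCNA is the sliding clamp of DNA polymerase. The MCM3 value was 0.017 without control replicate 4. The list median was -0.0046 without CR replicate 8 and -0.027 without control replicate 4. Of 9 tested senescence and secretory genes 3 lay above 0 and 6 below, with a median of -0.072, which was 0.19 without control replicate 4. The chromatin protein gene HMGB1 differed by -0.35 ± 0.24, the protease inhibitor gene TIMP2 by 0.20 ± 0.19 and the Polycomb gene CBX7 by 0.19 ± 0.20. IL6, CXCL8 and LMNB1 were below the limit for testing.

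**Figure D5:**
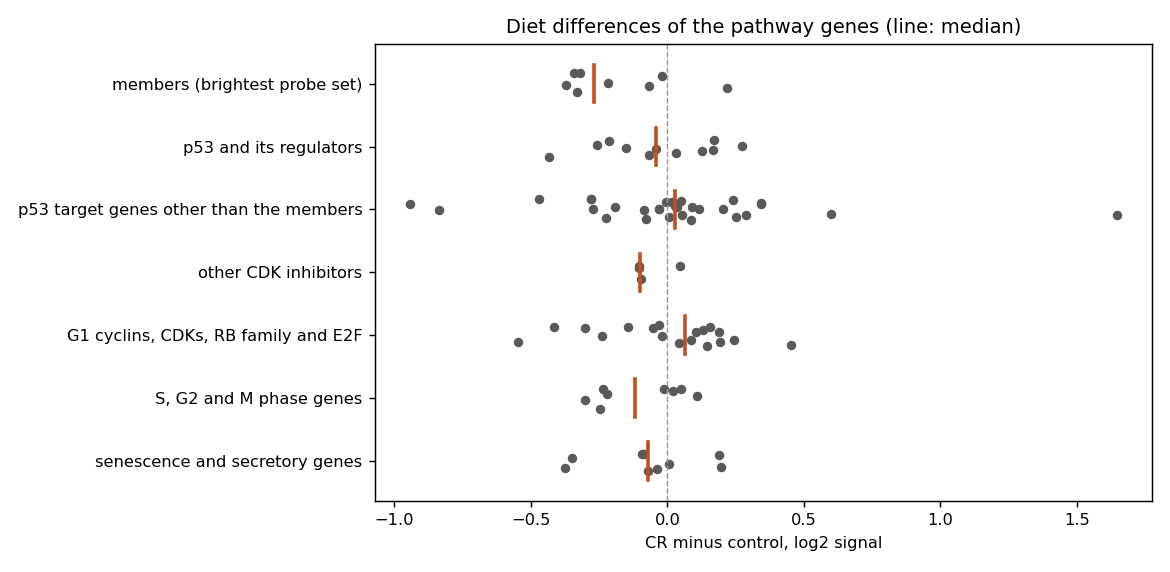
Difference in log2 signal, CR minus control, for the 8 members by their brightest probe set and for the tested genes of 6 pathway lists, 1 point per gene with a line at the median. List medians lie between -0.12 and 0.065, that of the 8 members is lower, and no gene passed limma's adjusted threshold. The median of the 8 members was -0.27, but -0.040 without control replicate 3 and -0.046 without CR replicate 8.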

How the data were processed

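Muscle RNA was made into biotinylated cRNA and read on one-colour Affymetrix arrays, as the labels' protocols state. Intensity on a linear scale, 1 signal for each probe set and array, was deposited by the authors, who computed it with MAS5 per the submitters' processing notes, which name no version of it. The table held 52865 probe sets, of which 99 are array controls. Signals were floored at 1 (137 values) and log2 transformed, and the dimmer 50% by mean log2 signal (under 6.74) were left out of the test. Gene names came from the platform annotation: 24969 probe sets had 1 symbol, 361 several and 27535 none listed. No genome build is named, so no positions are given. Detection calls were not used.

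The diets were compared in R 4.3.3 with limma 3.58.1 (lmFit, then eBayes with a trended prior; two-sided tests), and the fit was tested on simulated data. Relations across animals used permutation tests with 100000 resamples within diets, two-sided, adjusted within each family. Animals are separate per the labels. The members and lists were chosen with earlier results of these data known. Named genes were all members, up to 3 genes per list by unadjusted p with MDM4, CCND2, CCND3, CDK4 and RB1, and 3 genes most like each member; some named by this rule are not reported here. Alternatives covered scaling, an offset of 16, filters (none, brightest 25%), the variance prior, array weights, RNA quality ratios, the replicate block and each animal left out. Alternatives for marker relations were chosen after seeing the data. Figures used matplotlib 3.10.9.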

Additional observations from a re-analysis of the deposited data

Results flagged for a closer look

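Dixon's test was used to look within each diet for single animals lying far from all others, over members, named pathway genes and marker sums. Of 94 groups searched, 5 had such an animal, where chance gives about 1 in 20 (4.7). For GADD45B on MmugDNA.30178.1.S1_at, CR replicate 4 was the lowest of its group at a log2 signal of 8.52, and without it the diet difference was -0.30. Control replicate 1 had the highest ATF3 signal among controls, 11.21, and without it the ATF3 difference was 2.11, with an adjusted p of 0.969 in limma. CR replicate 2 had the lowest BTG2 signal of its group, 7.45, control replicate 4 the lowest MCM2 signal, 8.78, and CR replicate 3 the lowest MDM4 signal, 4.71.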

How the results depend on the processing

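No member probe set passed limma's adjusted threshold under any alternative run. Over all probe sets 0 passed, and 0 to 1 when single animals were left out, with 1 without control replicate 1 and 1 without control replicate 5, neither a member. Groups did not overlap for 19 probe sets, and for 24 after quantile normalization. Signs turned for several differences, among them CDKN2A and MCM3. With array quality weights the log2 difference was 0.0029 for CDKN1A, -0.028 for the dimmest GADD45A probe set, 0.017 for GADD45B (MmugDNA.23069.1.S1_at) and 0.016 for RB1. With the RNA quality ratios it was 0.027 for CDKN1A, -0.14 for the dimmest GADD45A probe set and 0.0054 for SESN1, and with quantile normalization 0.015 for CCND1. The replicate block sets CR replicates 6, 7 and 8 aside, since no control has those numbers. Its differences therefore compare replicates 1 to 5 of each diet, not all 13 animals. With the block the log2 difference was 0.15 for CDKN1A, 0.12 for CDKN2A, and 0.065 and -0.052 for GADD45A (MmugDNA.34522.1.S1_at and the dimmest). It was 0.049 for GADD45B (MmugDNA.23069.1.S1_at), 0.095 for SESN1, 0.11 for CDKN2AIP, 0.10 for MCM3, 0.085 for RB1 and 0.015 for CDK4. The replicate numbers do not pair the animals: deviations of animals with the same number correlated between -0.20 and 0.020, and the block changed no call. Under it, with those CR animals set aside, 8 of 14 member probe sets and 4 of 8 genes lay below 0. Leaving out 1 animal gave -0.57 to 0.086 for CDKN1A, -0.62 to 0.047 for CDKN2A, -0.22 to 0.58 (MmuSTS.4816.1.S1_at) and -0.086 to 0.15 (the dimmest) for GADD45A, -0.18 to 0.10 for GADD45B (MmugDNA.23069.1.S1_at), -0.19 to 0.16 for CCND1 and -0.16 to 0.0044 for SESN1. It gave -0.37 to 0.29 for CCND3, -0.14 to 0.069 for CDK4, -0.30 to 0.12 for CDKN3, -0.48 to 0.017 for MCM3 and -0.18 to 0.049 for RB1. List medians ran from -0.11 to 0.086 for the p53 regulators, -0.031 to 0.071 for p53 targets, -0.043 to 0.094 for the G1 list and -0.15 to 0.19 for senescence genes. They ran from -0.15 to -0.0046 for the S, G2 and M list and from -0.15 to -0.025 for the other CDK inhibitors. The senescence median was also 0.096 with array weights, 0.13 with the RNA quality ratios and 0.066 with the block, the S, G2 and M median 0.034 in the brightest 25%, the G1 median -0.0081 with the ratios and the p53 target median -0.0031 after median centring. The r of CDKN1A and CDKN1B was 0.0037 without control replicate 4. The causes were not tested. Dim probe sets and 13 animals limit what can be seen: the median half-width of a 95% interval was 0.55 on the log2 scale.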
